A study of Homo sapiens with 12 samples.

Results

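Transcript levels under phenobarbital (PB) were compared with those under CITCO in HepaRG cells labelled as a knockout of the constitutive androstane receptor (CAR). HepaRG is a line from a human liver tumour that matures into a mix of hepatocyte-like and biliary-like cells. The comparison set the KO PB libraries, KO_PB 1 and KO_PB 2, against the KO CITCO libraries, KO_CITCO 1 and KO_CITCO 2, which are 4 of the 12 libraries of the study. All loci with at least 1 CPM (counts per 1000000 reads, as normalized by the authors) in at least 2 of the 12 libraries were tested, 15792 of 15822. The whole study crosses 2 genotypes, a knockout of human CAR (KO) and wild type (WT), with 3 agents: PB, CITCO and the solvent DMSO. Each of the 6 groups, KO PB, KO CITCO, KO DMSO, WT PB, WT CITCO and WT DMSO, holds 2 libraries of total RNA. Not given in the sources used here are the doses, how long cells were exposed, how CAR was knocked out, whether the KO line is 1 clone, and the strandedness of the libraries. Each value below is therefore that of these exposures, and a stronger response to either agent cannot be told apart from a higher dose. Whether duplicates are separate cultures is not stated in the labels, and p-values here reflect library-to-library spread alone, possibly only technical.

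CAR and the pregnane X receptor (PXR) are nuclear receptors that pair with RXR and switch on overlapping sets of genes for oxidation, conjugation and export of drugs in hepatocytes. CITCO binds CAR directly. PB is known to activate CAR indirectly, through signalling that moves the receptor to the nucleus, and to bind human PXR. Another sensor, the aryl hydrocarbon receptor (AhR), controls the CYP1 family.

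NR1I3, the gene of CAR, was still transcribed in the KO libraries. It stood at 16.2 and 15.6 CPM in KO PB, 9.63 and 10.7 CPM in KO CITCO, and 11.0 and 10.6 CPM in KO DMSO libraries. It stood at 14.8 and 15.5 CPM in WT PB, 9.70 and 9.33 CPM in WT CITCO, and 11.47 and 11.97 CPM in WT DMSO libraries. Both genotypes were higher under PB than under CITCO, without overlap. Where the edit lies is not stated in the labels, so this level is no check of the genotype. Read counts here are inferred from the smallest step between values of a library. Summed over the deposited loci they came to 55182190 to 64246430 in the 4 libraries compared, which makes 1 CPM worth 61.2 to 69.1 reads. Duplicates differed beyond sampling noise (chi-square per degree of freedom 5.07 in KO PB and 4.78 in KO CITCO), and far less than libraries across the agents did (43.3 and 47.2).

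Markers of the labelled line were checked first. The summed level of 11 hepatocyte markers was 63970 to 65230 CPM in KO PB and 54140 to 54780 CPM in KO CITCO libraries. CYP3A4, itself 1 of the 11, accounts for 10414 and 10929 of these CPM in KO PB and 2546.5 and 2544 in KO CITCO libraries. Of the 11, 5 were called higher under PB, CYP3A4, APOA1 (0.30), CPS1 (0.24), ASGR1 (0.21) and SERPINA1 (0.19), CYP2E1 was called lower (-0.74) and 5 were uncalled. Albumin (ALB) averaged 41310 CPM in KO PB and 40920 CPM in KO CITCO libraries, which was not a called difference (log2 0.01, adjusted p = 0.897). Of 7 biliary markers 4 passed the filter, and their sum was 106.8 to 110.7 CPM in KO PB and 103.7 to 108.5 CPM in KO CITCO libraries. Of 9 mesenchymal markers 5 passed, with sums of 245.5 to 247.5 CPM in KO PB and 238.7 to 243.4 CPM in KO CITCO libraries, and COL3A1 was the called one among them. In bulk RNA, fewer cells of a type and less RNA per cell cannot be told apart, and the part of these marker sums in the results below was not tested.

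PB and CITCO left KO cells with different levels of 865 loci, 5.48% of those tested (limma, Benjamini-Hochberg adjusted p under 0.05, no minimum fold). Of these, 563 (3.57%) were higher under PB and 302 (1.91%) lower. Large differences were few: 31 loci were higher by 2-fold or more and 3 lower by as much, while 665 of the 865 differed by less than 0.5 on the log2 scale. The median difference of all loci was -0.00, on the scale of log2(CPM + 0.5) used throughout, which understates the change of low genes. Counts of loci depended on the libraries. Leaving out KO_PB 1 gave 392 calls, without KO_PB 2 there were 410, without KO_CITCO 1 there were 457 and without KO_CITCO 2 there were 428. Scaling each library to its column total gave 388 higher and 596 lower calls, so that the balance of small changes rests on the scaling.

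**Figure D1:**
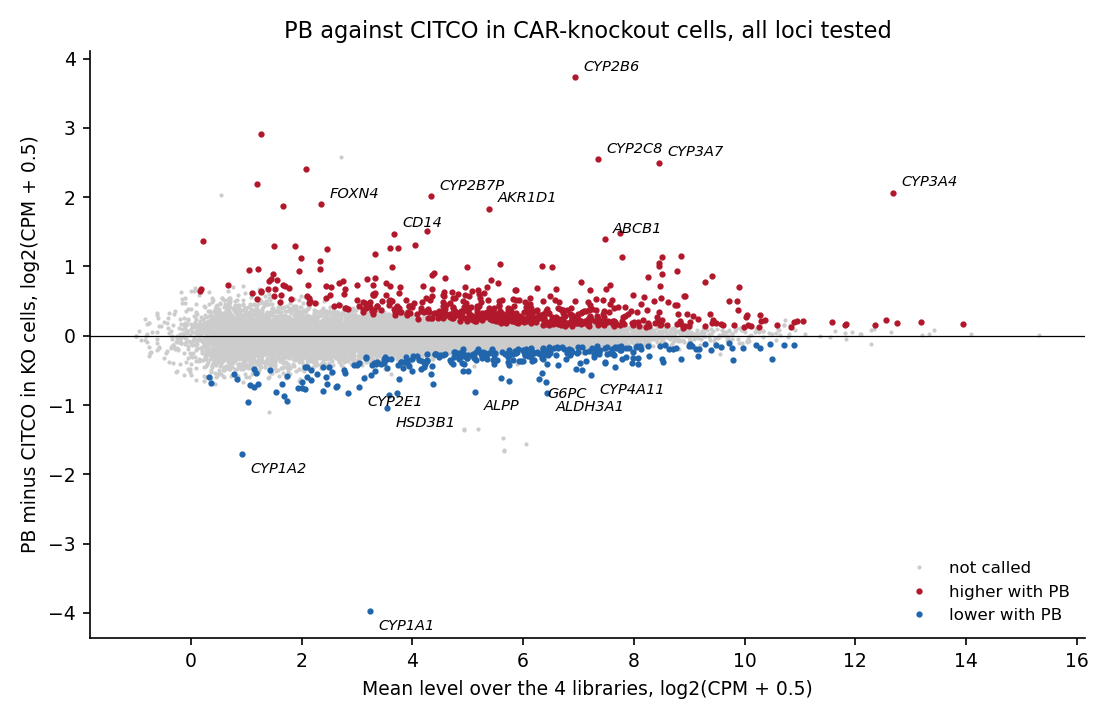
Difference between PB and CITCO in KO cells (vertical axis, log2) against the mean level over the 4 libraries (horizontal axis, log2) for all 15792 loci, 1 point each. Red points are the 563 loci called higher under PB and blue points the 302 called lower. CYP2B6 stands highest and CYP1A1 lowest.

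The cytochromes P450 that oxidise drugs rose furthest under PB. Of 14 tested members of the list, 10 were higher under PB, 1 was lower and 3 were uncalled, with a median difference of 1.30 against -0.00 over all loci. Against DMSO in the same cells, 11 of them rose and 1 fell under PB, and 6 rose under CITCO. Of all loci, 6.96% were called against DMSO under PB (3.87% higher, 3.09% lower) and 0.811% under CITCO (0.386% higher, 0.424% lower), and both of these contrasts rest on the same KO DMSO libraries.

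CYP2B6, which oxidises drugs such as bupropion and efavirenz and commonly serves to gauge CAR activity (chromosome 19, 40991282 to 41018398, GRCh38.p14), had 229.9 and 226 CPM in KO PB, 17.4 and 16.1 CPM in KO CITCO, and 10.2 and 8.95 CPM in KO DMSO libraries. The agents did not overlap, and CITCO also stood above DMSO in every library. PB exceeded CITCO 13.6-fold (log2 3.73, SE 0.058, adjusted p = 5.26e-18). Against DMSO, CYP2B6 rose 23.8-fold under PB and 1.75-fold under CITCO (adjusted p = 9.78e-20 and 4.15e-07). Its neighbour CYP2B7P, a transcribed pseudogene of near-identical sequence, had 31.3 and 32.5 CPM in KO PB and 7.73 and 7.32 CPM in KO CITCO libraries. That was a difference of 2.01 (adjusted p = 2.3e-11), with CITCO at the DMSO level of 7.64 and 8.32 CPM. How the counting shared reads between these loci is not given in the sources used here, and the same holds for CYP3A4 with CYP3A7, CYP2A6 with CYP2A13 and CYP2C8 with CYP2C18.

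CYP2C8, which metabolises paclitaxel, was next, with 275.7 and 279.6 CPM in KO PB, 46.5 and 47.7 CPM in KO CITCO, and 32.1 and 33.7 CPM in KO DMSO libraries. PB exceeded CITCO 5.89-fold (log2 2.55, SE 0.048, adjusted p = 4.79e-17). Its relative CYP2C18 differed less, by 1.13.

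The nicotine oxidase CYP2A6 had 320.0 and 316.2 CPM in KO PB, 115.8 and 112.3 CPM in KO CITCO, and 112.9 and 107.9 CPM in KO DMSO libraries. KO PB libraries were the high ones, and those of CITCO lay close to DMSO libraries. The PB minus CITCO difference was 1.48 (adjusted p = 1.87e-13), and CITCO minus DMSO was uncalled at 0.05 (adjusted p = 0.799). CYP2A13 was scarce, at 4.74 and 4.19 CPM in KO PB and 0.932 and 0.791 CPM in KO CITCO libraries, and differed by 1.87.

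CYP3A4, the most abundant drug-oxidising P450 of adult liver, reached 10414 and 10929 CPM in KO PB, against 2546.5 and 2544 CPM in KO CITCO and 1079.9 and 1100.8 CPM in KO DMSO libraries. It took 1.12 and 1.17% of all signal in KO PB and 0.282 and 0.283% in KO CITCO libraries. CITCO libraries lay between those of PB and DMSO, with no overlap. PB exceeded CITCO 4.19-fold (log2 2.07, SE 0.035, adjusted p = 9.8e-18). Unlike CYP2A6, CYP3A4 rose under CITCO too, 2.33-fold over DMSO (log2 1.22, adjusted p = 1.76e-13), where PB gave 9.79-fold (log2 3.29).

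The fetal form CYP3A7 followed the same order. It had 549.2 and 642.3 CPM in KO PB, 104.1 and 105.3 CPM in KO CITCO, and 45.9 and 56.0 CPM in KO DMSO libraries. PB exceeded CITCO by 2.50 (adjusted p = 1.87e-13). CYP3A5 differed by 0.85 and CYP3A43 by 0.73, and the CYP3A43 call (adjusted p = 0.0128) was lost without KO_PB 2 (0.21) and without KO_CITCO 1 (0.16).

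The CYP3A genes lie in 1 cluster on chromosome 7, and the promoters of CYP3A4, CYP3A5 and CYP3A7 are shown as description only. RefSeq promoters (GRCh38.p14) were read for the 250 bases before each start, all on the minus strand: chr7:99784185-99784434 for CYP3A4, chr7:99679997-99680246 for CYP3A5 and chr7:99735197-99735446 for CYP3A7. Capitals mark an everted repeat with a spacer of 6 bases, the type of element at which PXR is known to bind in the CYP3A4 promoter, or the closest stretch in CYP3A7.
CYP3A4: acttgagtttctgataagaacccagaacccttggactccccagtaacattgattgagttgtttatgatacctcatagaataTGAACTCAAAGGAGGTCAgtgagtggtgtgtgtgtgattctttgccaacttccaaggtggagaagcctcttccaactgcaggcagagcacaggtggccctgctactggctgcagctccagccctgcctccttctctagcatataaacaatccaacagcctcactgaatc
CYP3A5: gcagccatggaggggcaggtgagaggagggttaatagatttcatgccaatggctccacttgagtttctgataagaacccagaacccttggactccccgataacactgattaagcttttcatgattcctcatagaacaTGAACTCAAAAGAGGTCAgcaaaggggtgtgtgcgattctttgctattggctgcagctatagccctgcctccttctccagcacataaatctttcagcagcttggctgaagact
CYP3A7: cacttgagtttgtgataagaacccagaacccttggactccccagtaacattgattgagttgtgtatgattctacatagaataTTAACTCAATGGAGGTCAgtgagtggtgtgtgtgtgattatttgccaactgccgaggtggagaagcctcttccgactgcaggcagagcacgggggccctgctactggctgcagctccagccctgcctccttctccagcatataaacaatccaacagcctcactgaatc

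The capitals begin 169 bases before the start in CYP3A4, 113 in CYP3A5 and 168 in CYP3A7. Counted from 1 at the 5′ end of the CYP3A4 stretch of 18 bases, CYP3A5 carries G11A, and CYP3A7 carries G2T and A10T. The letters searched, on both strands, were TGANCT and AGNTCA with 6 bases of any kind between them, which 13 of 35116 RefSeq promoter windows held (0.037%). Of 15 P450 genes, the 14 of the list and CYP1A1, 11 had a promoter in the table, and CYP3A4 and CYP3A5 held this motif. Direct repeats of AGNTCA with 3 or 4 bases between them, found in 0.0456% and 0.094% of windows, had no match in those 11. Sequence farther from each start was not searched. The windows therefore cannot show whether these genes hold such repeats, or the everted one, elsewhere. CYP3A7 missed the motif through 1 fixed letter, G2T, as A10T lies in the spacer. The PB minus CITCO difference was 2.50 in CYP3A7, 2.07 in CYP3A4 and 0.85 in CYP3A5. Its relation to the motif was not tested.

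**Figure D2:**
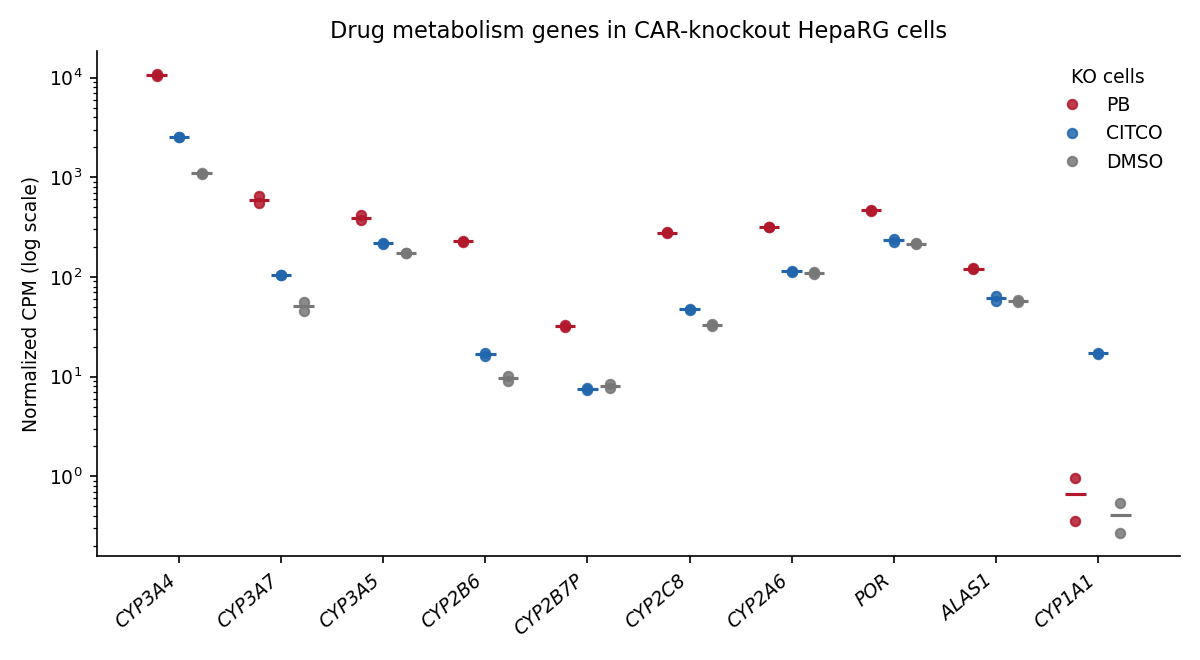
Normalized CPM (vertical log axis) of 10 drug metabolism genes in KO cells under PB (red), CITCO (blue) and DMSO (grey), 1 point per library with a bar at the mean of 2. PB libraries are highest for every gene shown but CYP1A1, where CITCO libraries are highest at 16.9 and 17.3 CPM.

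Not every P450 rose. CYP2E1, which oxidises ethanol, had 5.86 and 5.47 CPM in KO PB, 9.60 and 10.0 CPM in KO CITCO, and 13.2 and 11.0 CPM in KO DMSO libraries. It fell under PB relative to CITCO (log2 -0.74, adjusted p = 2.17e-06), with the lowest values of the 6 KO libraries. CYP4F12 (0.19, 95% interval 0.01 to 0.36), CYP2D6 (-0.07, -0.42 to 0.28) and CYP2J2 (-0.02, -0.19 to 0.14) were uncalled. These intervals exclude a 2-fold difference in either direction.

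Enzymes that serve the P450s followed in part. Of 12 genes of heme synthesis and electron supply, 5 were higher and 1 lower, with a median of 0.07. POR, the reductase that passes electrons to microsomal P450s, had 471.5 and 457.2 CPM in KO PB and 239.3 and 224.9 CPM in KO CITCO libraries (log2 1.00, adjusted p = 3.83e-11). ALAS1, the first and rate-limiting enzyme of heme synthesis, had 122.8 and 119.6 CPM in KO PB and 64.1 and 57.4 CPM in KO CITCO libraries (0.99, adjusted p = 3.64e-10). CYB5A, cytochrome b5, rose by 0.94. In these 3 genes CITCO minus DMSO ranged from 0.07 for ALAS1 to 0.16 for CYB5A, of which CYB5A was called (adjusted p = 0.0418). Leaving out KO_PB 1, KO_PB 2 or KO_CITCO 2 left 3 members of this list called, each higher under PB.

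AhR targets ran the other way. CYP1A1, the P450 most readily induced by AhR ligands (chromosome 15, 74719542 to 74725528, GRCh38.p14), had 0.969 and 0.352 CPM in KO PB, 16.9 and 17.3 CPM in KO CITCO, and 0.268 and 0.540 CPM in KO DMSO libraries. The CITCO libraries stood alone, and PB overlapped DMSO. As reads these were 67 and 24 in KO PB, 1032 and 1117 in KO CITCO, and 16 and 39 in KO DMSO libraries. CITCO exceeded PB 25.9-fold (PB minus CITCO log2 -3.98, SE 0.221, adjusted p = 7.52e-10) and exceeded DMSO 42.3-fold (log2 4.30). PB minus DMSO was uncalled (0.32, adjusted p = 0.502).

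CYP1A2, which clears caffeine, showed the same arrangement at lower levels, with 0.608 and 0.205 CPM in KO PB and 2.35 and 2.42 CPM in KO CITCO libraries (log2 -1.71, adjusted p = 0.00022). ALDH3A1, an aldehyde dehydrogenase, had 60.5 and 63.3 CPM in KO PB, 113.6 and 106.1 CPM in KO CITCO, and 47.9 and 49.5 CPM in KO DMSO libraries. It was lower under PB than under CITCO (-0.82, adjusted p = 1.92e-08) and above DMSO under both agents, by 0.34 for PB and 1.16 for CITCO (adjusted p = 0.000683 and 1e-09). Of the 5 AhR targets tested these 3 were lower under PB, the other two were uncalled, and the median was -0.82. GCGTG, the core letters bound by the AhR complex, stood in the windows of CYP1A1 and of CYP2J2, which was uncalled between the agents. Of all windows, 32.2% hold these letters.

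Conjugating enzymes and exporters mostly moved with the P450s, by smaller amounts. Of 18 phase II genes, 11 were higher under PB and 1 lower (median 0.25). EPHX1, which hydrolyses epoxides, had 790.8 and 776.3 CPM in KO PB and 457.8 and 455.4 CPM in KO CITCO libraries (0.78, adjusted p = 1.42e-11). The glucuronosyltransferase UGT2B4 rose by 0.72 and the glutathione transferase GSTA1 by 0.58. UGT2B7 was the member that fell (-0.32), and no member was called lower without KO_PB 2 or with a constant prior variance.

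Of 20 hepatic transporters, 13 were higher and the other 7 uncalled (median 0.31), and 8 were called without KO_CITCO 2. ABCB1, the drug exporter P-glycoprotein, had 258.1 and 257.4 CPM in KO PB, 96.0 and 98.9 CPM in KO CITCO, and 90.3 and 90.5 CPM in KO DMSO libraries. PB libraries stood apart, 2.65-fold above those of CITCO (log2 1.40, adjusted p = 1.87e-13). ABCC2, which exports conjugates into bile, rose by 0.88. SLC51B, a subunit of the basolateral bile acid exporter, was scarce, with 80 and 81 reads in KO PB and 11 and 8 reads in KO CITCO libraries (1.36, adjusted p = 0.000258).

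Targets of NRF2, the sensor of oxidative and electrophilic stress, included 9 of 16 higher under PB, with the other 7 uncalled (median 0.23). Without KO_PB 1 the count was 5, and with column-total scaling 8 were higher and 1 lower. AKR1B10, an aldo-keto reductase, had 471 and 470.9 CPM in KO PB, 225.1 and 231.2 CPM in KO CITCO, and 184.5 and 183.4 CPM in KO DMSO libraries (1.04, adjusted p = 1.94e-13). GPX2, a glutathione peroxidase, rose by 1.00 and AKR1C2 by 0.87. AKR1C2 lies among near-identical copies, so its reads may be shared with them.

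Among the receptor genes, that of CAR was higher under PB, while those of PXR and its partner RXRA changed little. Of 23 nuclear receptors and liver transcription factors, 4 were higher under PB and 19 uncalled (median 0.03): CREB3L3 (0.68), NR1I3 (0.62, adjusted p = 0.000143), PPARA (0.34) and ESRRA (0.28). After quantile normalization 4 were higher and 1 lower. NR1I2, the gene of PXR, had 22.9 and 24.1 CPM in KO PB and 24.4 and 24.3 CPM in KO CITCO libraries (-0.05, 95% interval -0.19 to 0.08). RXRA, the shared partner, had 88.4 and 88.9 CPM in KO PB and 90.6 and 85.9 CPM in KO CITCO libraries (0.01, -0.11 to 0.13).

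A list of other genes reported as CAR or PXR targets had 7 of 13 higher and 2 lower (median 0.70). It was written with earlier results of these data known, so its direction is no independent evidence. AKR1D1, a reductase of bile acid synthesis, had 65.8 and 64.4 CPM in KO PB, 17.4 and 18.5 CPM in KO CITCO, and 15.5 and 15.3 CPM in KO DMSO libraries (1.83, adjusted p = 1.87e-11). ANO1, a calcium-activated chloride channel, rose by 1.51, and FBXW10, an F-box protein, by 1.24. FMO5, a flavin monooxygenase (37.7 ± 1.1 CPM in KO PB and 58.0 ± 1.55 CPM in KO CITCO cells, SD, n = 2 each), and HSD17B2, which inactivates estradiol, were lower under PB than under CITCO, each by 0.62. FMO5 was lowest under PB among the KO groups. HSD17B2 had 480 and 396 reads in KO PB, 644 and 613 in KO CITCO, and 415 and 487 in KO DMSO libraries. In that gene CITCO was high and PB overlapped DMSO.

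Among loci outside the P450 list with at least 5 CPM in either group, the 12 with the largest rise ran from 1.14 to 2.41. GSTA5 led them with 4.61 and 8.60 CPM in KO PB and 1.21 and 0.465 CPM in KO CITCO libraries. Its call (adjusted p = 0.0127) was lost without KO_PB 2 and without KO_CITCO 2 (0.19 for each), and its reads may be shared with other GSTA genes. The transcription factor FOXN4 had 7.54 and 7.53 CPM in KO PB, against 1.52 and 1.80 CPM in KO CITCO and 1.22 and 0.942 CPM in KO DMSO libraries (1.90, adjusted p = 2.53e-07). CD14, a co-receptor for bacterial lipopolysaccharide that hepatocytes also secrete, had 18.8 and 17.6 CPM in KO PB and 6.05 and 6.402 CPM in KO CITCO libraries (1.47, adjusted p = 2.71e-07). In both genes the PB libraries lay far above the others. The remaining members were AKR1D1, ANO1, ABCB1, ALPI (1.31), MSX1 (1.27), ETNPPL (1.27), FBXW10, SERPINA11 (1.19) and TSKU (1.14). TSKU, a secreted protein of liver, stood at 510.6 and 492.2 CPM in KO PB and 229.6 and 224.4 CPM in KO CITCO libraries.

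The same limit of 5 CPM leaves out CYP1A2. Within it, the largest differences with PB below CITCO, after CYP1A1, were smaller and mostly in scarce transcripts. HSD3B1, a steroid dehydrogenase of placenta and skin, had 8.09 and 6.24 CPM in KO PB, 15.8 and 14.6 CPM in KO CITCO, and 17.7 and 16.3 CPM in KO DMSO libraries (-1.05, adjusted p = 1.23e-06). Here PB libraries were low and CITCO was near DMSO. SLC14A1, a urea transporter, showed another arrangement: it had 8.64 and 9.42 CPM in KO PB, 17.5 and 15.5 CPM in KO CITCO, and 10.5 and 10.2 CPM in KO DMSO libraries. In that gene CITCO was high and PB lay near DMSO, the difference of PB minus CITCO being -0.83 (adjusted p = 9.26e-05). The non-coding locus RP11-311F12.2 (-0.80) was arranged alike, with CITCO minus DMSO of 0.96 (adjusted p = 0.000222). ALPP, an alkaline phosphatase, fell under PB relative to CITCO by 0.81 while its relative ALPI rose, and reads of these similar genes may be shared. The others of the 12 were SULT1D1P, AC068134.8, ALDH3A1, CDC20B, CTD-2319I12.1, TAC3 and CH17-360D5.2, between -0.85 and -0.70. The CDC20B call was lost without KO_PB 1 (adjusted p = 0.051), as was that of CTD-2319I12.1 (0.18, and 0.12 without KO_CITCO 2).

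Genes of hepatocyte metabolism moved by less, in both directions. Of 15 loci of the urea cycle and amino acid catabolism, 7 were higher and 8 uncalled (median 0.15), with 4 called without any 1 of KO_PB 1, KO_PB 2 and KO_CITCO 2. Column-total scaling gave 4 higher and 1 lower. ARG1, which splits arginine into urea and ornithine, had 167.2 and 166.1 CPM in KO PB and 99.6 and 95.6 CPM in KO CITCO libraries (0.77, adjusted p = 9.24e-08). ALDH6A1, an aldehyde dehydrogenase of valine breakdown, rose by 0.26 (adjusted p = 0.000397). Secreted plasma proteins included 9 of 19 higher and 10 uncalled (median 0.16), among them FETUB (0.88) and antithrombin, SERPINC1 (0.54). Of 16 bile acid synthesis genes, 6 were higher and 2 lower (median 0.08), with 3 or 4 called, none of them lower, when any of the 4 libraries was left out. Besides AKR1D1, SLC27A5, which conjugates bile acids to coenzyme A, rose by 0.84.

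Glucose and fat genes split. G6PC, the last enzyme of glucose release, had 61.4 and 61.1 CPM in KO PB, 94.6 and 95.2 CPM in KO CITCO, and 101.6 and 97.1 CPM in KO DMSO libraries. It fell under PB relative to CITCO (-0.63, adjusted p = 4.69e-08), whereas PCK2, a mitochondrial enzyme of the same pathway, rose by 0.35. Of 11 gluconeogenesis and glycogen genes 2 were higher and 1 lower (median 0.13), but 1 higher and 3 lower with column-total scaling. Fatty acid oxidation and PPARA targets had 5 of 21 higher and 7 lower (median 0.06). The fatty acid hydroxylases CYP4A22 (-0.65) and CYP4A11 (-0.57) fell, and CREB3L3, a liver activator of fasting genes, rose. That list held 5 calls without KO_PB 2 and 7 each without KO_CITCO 1 and without KO_CITCO 2. Of 14 fatty acid synthesis genes 3 were higher and 1 lower, with THRSP, an inducer of lipogenesis, at 0.74 and GPAM, the first enzyme of glycerolipid synthesis, at -0.32. With column-total scaling 2 of them were higher and 3 lower.

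Of 19 ATF4 and unfolded protein response genes, 6 were higher and 3 lower (median 0.15). The amino acid enzymes PHGDH (0.52) and ASNS (0.48), known ATF4 targets, were higher, and the lower ones were the chaperones HSP90B1 (-0.17), HSPA5 (-0.15) and CALR (-0.13). No member was called lower without KO_PB 1, without KO_CITCO 2 or with a constant prior variance, and 1 was without KO_PB 2 or KO_CITCO 1. In all the list held 4 calls without KO_PB 1 and 5 each without KO_PB 2 and without KO_CITCO 2, and the ASNS call was lost without KO_PB 2 (adjusted p = 0.058). Of 18 acute phase genes 5 were higher and 13 uncalled (median 0.09), led by ceruloplasmin, CP (0.27). Their directions depend on scaling: after quantile normalization 2 were higher and 1 lower, and ORM1, at 0.23 here, was at -0.03 (adjusted p = 0.538).

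Connective and growth genes gave small counts. Of 15 mesenchymal and matrix genes, 2 were higher and 3 lower (median -0.06), with 1 higher and 5 lower after quantile normalization. COL3A1 rose by 0.61, and the YAP targets CTGF (-0.67) and CYR61 (-0.49) fell. CTGF had 63.9 and 66.7 CPM in KO PB, 106.5 and 101.6 CPM in KO CITCO, and 102.6 and 104.1 CPM in KO DMSO libraries. Of 10 genes of the IGF axis, IGFBP3, a carrier of IGF, was the 1 called (-0.48).

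The remaining lists with calls had 1 to 6 called members each, where 5.48% of all loci were called. Of 22 glycolysis and hypoxia genes, 2 were higher and 4 lower (median 0.05), with 1 or 2 called when any of the 4 libraries was left out and 1 higher and 5 lower with column-total scaling. Its largest difference, in NDUFA4L2 (-0.77, adjusted p = 0.0291), was lost without KO_PB 2 (0.35), without KO_CITCO 1 (0.16) and without KO_CITCO 2 (0.15). Of 22 cholesterol synthesis genes MVK alone was called (0.25), and that call was lost without any of the 4 libraries (adjusted p = 0.10 to 0.20). The direction turned with the scaling, since column totals gave 4 members lower and none higher and quantile normalization 1 higher and 2 lower. Of 27 cell cycle genes MCM6 alone was called (-0.28), and that call was lost without KO_PB 1 and without KO_CITCO 2 (0.064 and 0.071), while column-total scaling gave 5 lower calls. Of 18 interferon response genes MX1 alone was called (0.34), which was lost without KO_PB 1 (0.52), KO_CITCO 1 (0.14) and KO_CITCO 2 (0.23) and with column-total scaling. Chemokines and NF-kB feedback genes had 1 of 13 higher, ICAM1 (0.35), and 1 lower, CXCL2 (-0.51). Pericentral and Wnt genes had 1 of 10 higher, GLUL (0.11, lost without any of the 4 libraries, adjusted p = 0.14 to 0.31, and under both other scalings), and 2 lower, CYP1A2 and CYP2E1. Of 7 biliary and progenitor genes CD24 was called (0.32).

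No member was called among 18 p53 targets (median -0.08), 12 mitochondrially encoded transcripts (0.03) and 5 replication-dependent histones (-0.20). At an unadjusted p under 0.05 limma gave 7 of the p53 targets, 3 of the mitochondrial transcripts and 3 of the histones. The same limit gave 2692 of all 15792 loci. These counts of 0 depend on scaling. With each library scaled to its column total, 5 p53 targets, 2 mitochondrial transcripts and 3 histones were called lower under PB. In that setting 596 loci in all were called lower. Of 25 ribosomal protein genes RPLP0 was called (0.13), and that was lost under both other scalings and without any of the 4 libraries (adjusted p = 0.13 to 0.25). Of 10 housekeeping controls, ACTB (-0.14), SDHA (-0.17) and YWHAZ (-0.19) were lower under PB, and these 3 calls were lost without any of the 4 libraries (adjusted p = 0.053 to 0.29).

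**Figure D3:**
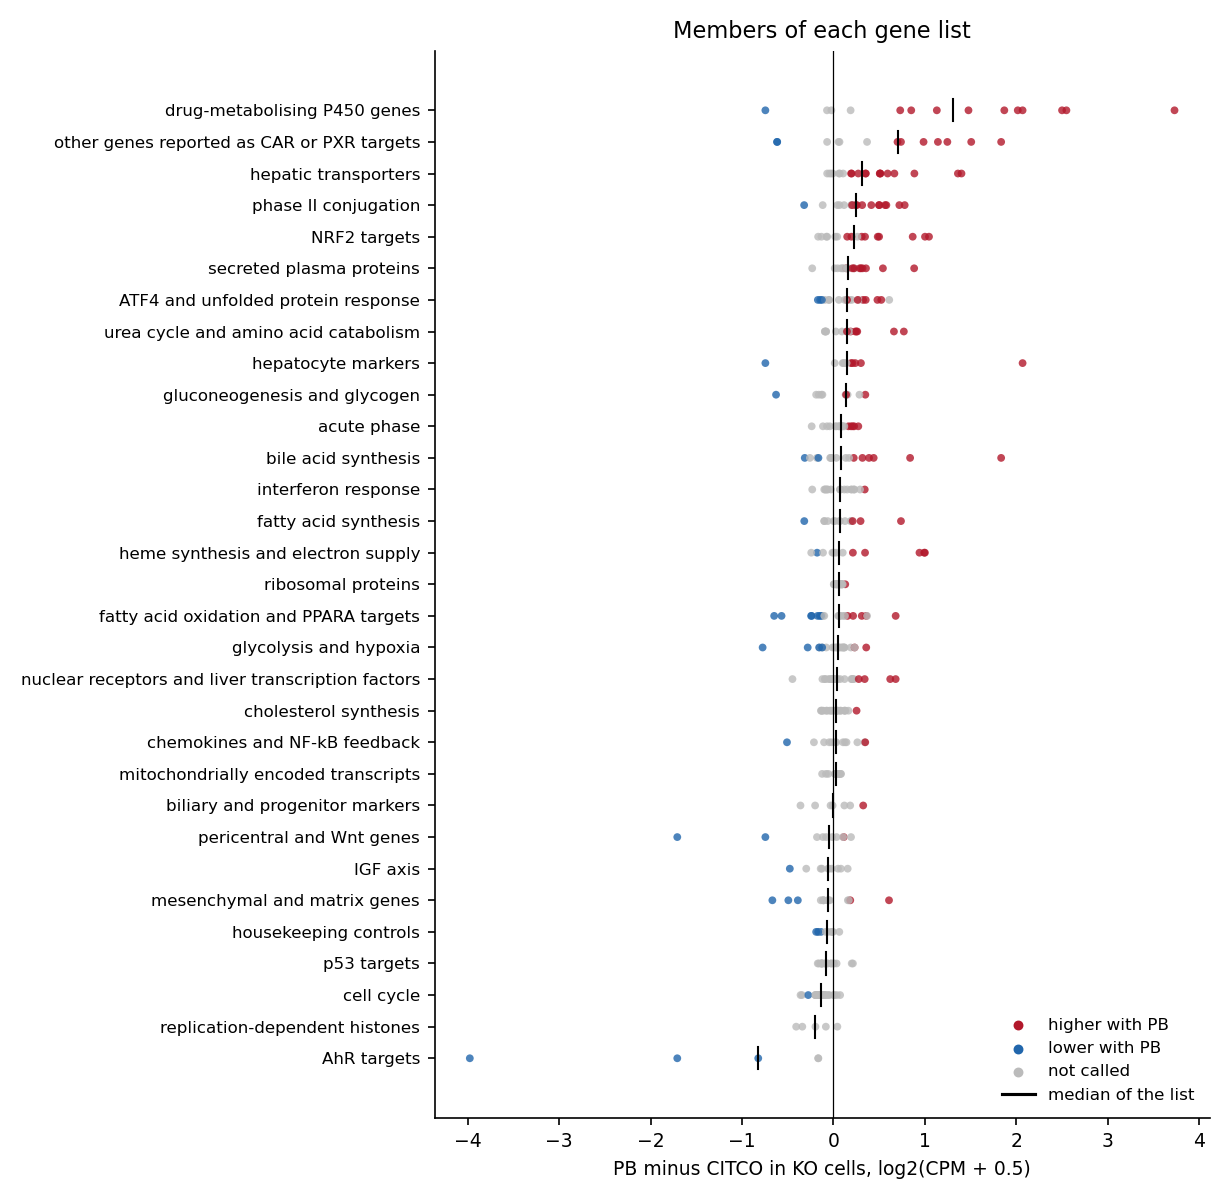
Difference between PB and CITCO in KO cells (horizontal axis, log2) for each tested member of the 31 gene lists, 1 row per list in order of the median (black tick). Red points were called higher under PB, blue points lower, grey points were uncalled. Drug-metabolising P450 genes lie at the top with a median of 1.30 and AhR targets at the bottom with -0.82.

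Whether the agents differed in KO cells as they did in WT cells was tested next, with the KO minus WT difference of the PB minus CITCO difference. Marker sums differed between the genotypes. Hepatocyte markers summed to 146900 to 153600 CPM in WT PB and 63970 to 65230 CPM in KO PB libraries. Biliary ones summed to 377.2 to 418.4 and 106.8 to 110.7 CPM, and mesenchymal ones to 113.3 to 115.6 and 245.5 to 247.5 CPM. The part of these sums in the interaction was not tested. That interaction was called for 219 loci (1.39%), of which 157 (0.994%) were higher in KO and 62 (0.393%) lower. Without 1 library the count was 82 (KO_PB 1), 97 (KO_PB 2), 111 (KO_CITCO 1), 93 (KO_CITCO 2), 128 (WT_PB 1), 413 (WT_PB 2), 88 (WT_CITCO 1) and 97 (WT_CITCO 2). Of the 865 loci called in KO cells 136 were also called in the interaction. In WT cells 992 loci (6.28%) were called between PB and CITCO, 419 (2.65%) higher and 573 (3.63%) lower. In both genotypes and the same direction 316 loci were called, 36.5% of the KO calls and 31.9% of the WT calls. The 2 contrasts share no library. Across the 865 loci the KO and WT differences correlated with r = 0.687, and across all 15792 loci with r = 0.294; loci are not independent replicates.

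CYP2B6 separated the genotypes most. WT libraries had 442.4 and 447.2 CPM under PB and 434.7 and 424.3 CPM under CITCO, so both agents lay close together in WT cells (log2 0.05, 95% interval -0.07 to 0.17) and 13.6-fold apart in KO cells. In WT cells both agents stood far above DMSO, with 24070 to 26395 reads against 1577 and 1769 in WT DMSO libraries. The interaction was 3.68 (95% interval 3.50 to 3.85, adjusted p = 2.75e-15). Interactions of CYP2C8 (1.90), CYP2B7P (1.71), CYP2A6 (1.30), CYP3A7 (1.25), CYP2A13 (1.14) and CYP2C18 (0.52) had the same sign, that of CYP2A13 losing its call without KO_PB 1 (adjusted p = 0.051). In all, 8 of the 14 P450 genes were called with a more positive PB minus CITCO difference in KO cells. The other 2 called, CYP3A4 and CYP2E1, had a more negative one.

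CYP3A4 and NR1I3 did not follow CYP2B6. CYP3A4 had 4030 and 3826 CPM in WT PB and 818.1 and 807 CPM in WT CITCO libraries, a difference of 2.27, close to the 2.07 of KO cells. Its interaction of -0.20 (adjusted p = 0.045) was lost without any 1 of KO_PB 1 and 2, KO_CITCO 1 and 2, WT_PB 1 and WT_CITCO 1 and 2 (adjusted p = 0.074 to 0.30) and had the opposite sign after quantile normalization (0.06, adjusted p = 0.779). NR1I3 differed by 0.62 in KO and 0.64 in WT cells, with an interaction of -0.02 (95% interval -0.28 to 0.24).

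**Figure D4:**
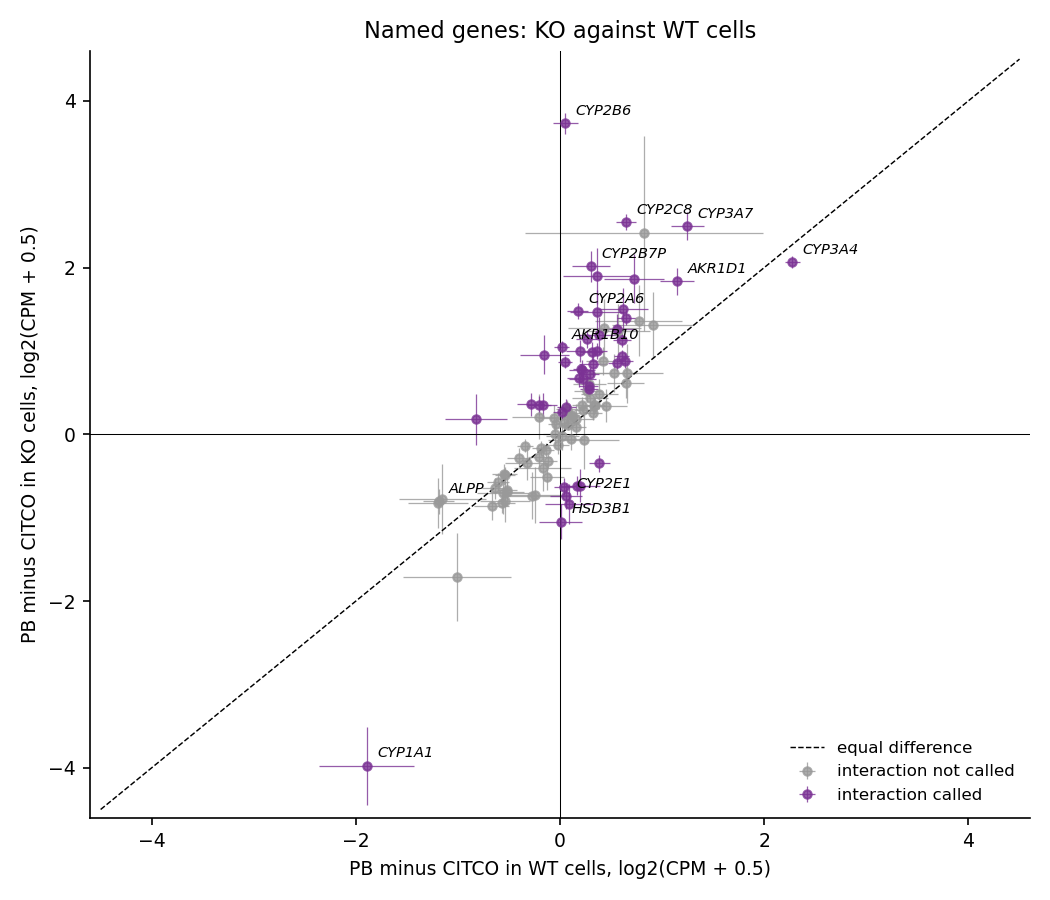
Difference between PB and CITCO in KO cells (vertical axis, log2) against that in WT cells (horizontal axis, log2) for the named genes, with 95% intervals. Purple points have a called interaction and the dashed line marks equal differences. CYP2B6 lies at 3.73 in KO and 0.05 in WT cells, and CYP3A4 near the line.

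Other interactions spanned several functions. AKR1B10 had 1166.7 and 1126.5 CPM in WT PB and 1131.9 and 1138.8 CPM in WT CITCO libraries, so that its difference was 1.04 in KO and 0.01 in WT cells (interaction 1.03, adjusted p = 2.4e-10). Both agents stood above DMSO in WT cells, with 62671 to 69616 reads of AKR1B10 against 25249 and 26004 in WT DMSO libraries. FOXN4 (1.54), CD14 (1.11), VSIG10L (1.11), RP11-14C10.5 (1.00) and ANO1 (0.89) completed the 6 largest positive interactions among loci outside the P450 list with at least 5 CPM in KO PB or KO CITCO cells and no overlap between these. Some scarcer loci had larger ones. RP11-14C10.5 was uncalled between the agents in KO cells (0.18, limma adjusted p = 0.615). In WT cells it had 43 and 57 reads under PB and 104 and 117 reads under CITCO. The ANO1 call was lost without KO_PB 1, KO_CITCO 1 or WT_CITCO 1 (adjusted p = 0.057 to 0.067), and that of RP11-14C10.5 without any library of the interaction but WT_PB 2 (0.061 to 0.13). VSIG10L had 6.21 and 6.13 CPM in KO PB and 2.91 and 2.96 CPM in KO CITCO libraries, against 7.04 and 6.93 CPM in WT PB and 7.78 and 7.85 CPM in WT CITCO libraries.

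On the negative side, within the same limits, CYP1A1 led. WT libraries had 2.48 and 2.11 CPM under PB and 10.2 and 9.57 CPM under CITCO (log2 -1.89), a smaller gap than in KO cells (interaction -2.08, adjusted p = 0.00145). With a constant prior variance that call was lost (adjusted p = 0.068). HSD3B1 (-1.05), SLC14A1 (-0.92), HSD17B2 (-0.81), FMO5 (-0.78) and SCGN (-0.73) followed within these limits, and the SLC14A1 call was lost without KO_PB 1 (adjusted p = 0.051). HSD3B1 had 24.6 and 21.99 CPM in WT PB and 22.5 and 23.7 CPM in WT CITCO libraries, which overlapped, in contrast to KO cells. G6PC, at 62.7 and 63.0 CPM in WT PB and 60.1 and 62.4 CPM in WT CITCO libraries, had an interaction of -0.66 (adjusted p = 1.14e-05).

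Opposite calls in the genotypes were rare, at 8 of the 865 loci, and the 7 given here were chosen after their values were seen. SCGN, a calcium sensor of secretory cells, had 63.1 and 65.2 CPM in KO PB and 81.1 and 82.2 CPM in KO CITCO libraries, against 149.7 and 148.8 CPM in WT PB and 118.9 and 109.9 CPM in WT CITCO libraries. It was lower under PB in KO (-0.35) and higher in WT cells (0.38). AKAP12 did likewise. ANGPTL4, ICAM1, TXNRD1, PLOD1 and ADSSL1 were higher under PB than under CITCO in KO and lower in WT cells. Against DMSO in KO cells, PB was called higher in TXNRD1 (0.25, limma adjusted p = 0.000109). It was uncalled against DMSO in ANGPTL4, ICAM1, PLOD1 and ADSSL1 (adjusted p = 0.275 to 0.736). In those genes CITCO minus DMSO ran from -0.30 to -0.18, called in ANGPTL4 alone (adjusted p = 0.0305). ANGPTL4, an inhibitor of lipoprotein lipase, had the largest interaction of those 5 (0.65, adjusted p = 0.000766).

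**Figure D5:**
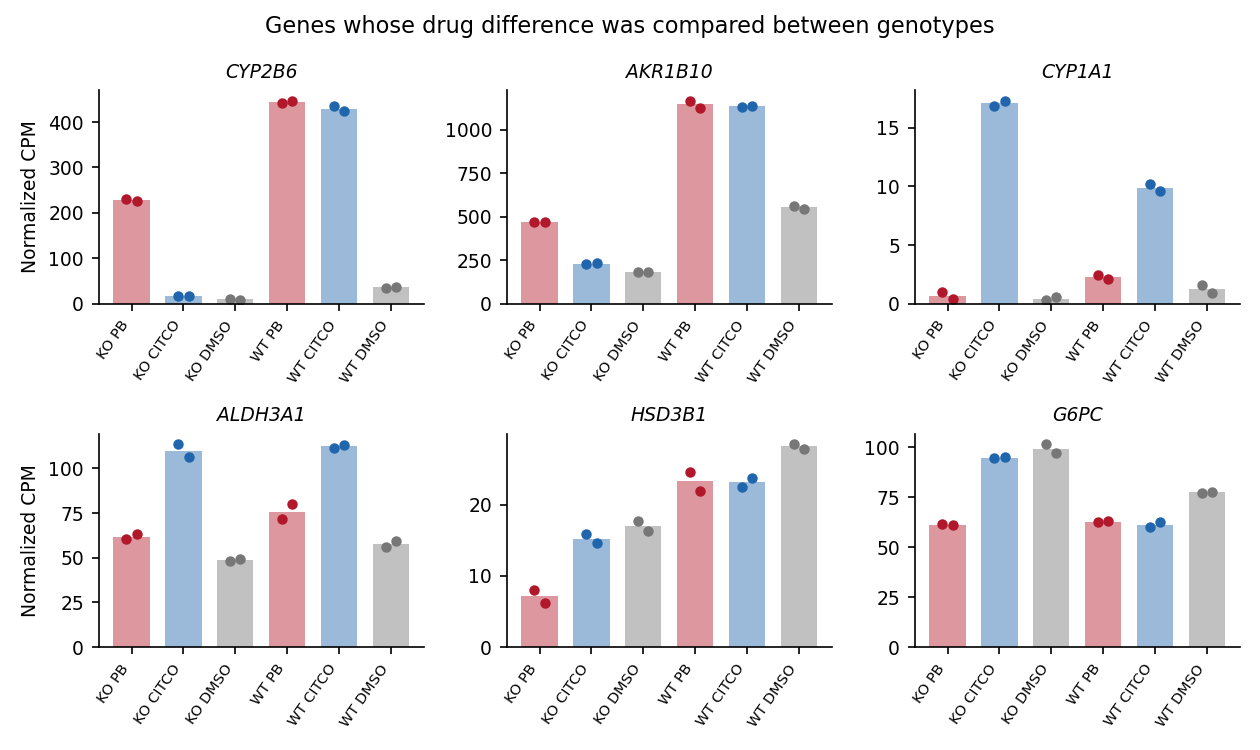
Normalized CPM (vertical axes start at 0) of 6 genes in all 12 libraries, bars at the mean of 2 libraries and points for each. In CYP2B6 and AKR1B10 the PB and CITCO bars are unequal in KO and nearly equal in WT cells, and in HSD3B1 and G6PC the KO PB bar is lower than the KO CITCO bar.

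Lists differed between genotypes in count as well. For cell cycle genes 1 of 27 was called lower under PB in KO (5 with column-total scaling) and 21 in WT cells, and the interaction was called for 3, each less negative in KO cells. Of cholesterol synthesis genes 1 of 22 was higher in KO and 11 in WT cells, with 5 interactions called, all more negative in KO. Interferon response genes had 1 of 18 higher in KO and 9 in WT cells, and 2 interactions called, both more negative in KO. For most members of these 3 lists the difference between genotypes was therefore not called. NRF2 targets went the other way, with 9 of 16 higher in KO cells, 2 higher and 2 lower in WT cells, and 6 interactions called, each more positive in KO. For most NRF2 targets too the difference between genotypes was not called. A small gap between the agents in WT cells can hold a rise under both. GPX2 had 1700 and 1687 reads in WT PB, 1464 and 1499 in WT CITCO, and 330 and 379 in WT DMSO libraries.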

How the data were processed

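The authors deposited 1 table of 15822 loci with gene symbols and a value for each of the 12 libraries, named CPM. These deposited values are best called a normalized signal, because columns sum to between 0.9 and 1.11 times 1000000, so that plain CPM cannot be meant. KO columns sum to 0.9 to 0.935 and WT columns to 1.07 to 1.11 times 1000000. All values of a column (100%) are multiples of 1 step, the size of a single read (tolerance 0.001 reads). The KO columns hold too few low values for a general check of this, so no count model was run. Per the submitters' processing notes, which give no roles, the tools included edgeR 2.12, Cuffdiff 2.1.1, Cufflinks 2.1.1, Bowtie 1.0.0 and TopHat2 2.0.10, and the builds GRCh38 and GRCh37. The authors' 7 tables of comparisons were not used.

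Values were tested with limma 3.58.1 (R 4.3.3) on log2(CPM + 0.5), with the spread as a trend on expression. All 12 libraries entered 1 fit of 6 group means with 6 residual degrees of freedom. Adjusted p-values are Benjamini-Hochberg over the 15792 loci of each contrast, 2-sided, and called means under 0.05. An exact permutation test of 2 libraries against 2 cannot go below p = 0.333. Folds are ratios of mean CPM. Locations and promoters are RefSeq's (GRCh38.p14). Named were the P450 list, NR1I3, NR1I2, RXRA, POR, ALAS1 and CYP1A1, the 12 largest called differences per direction outside that list with at least 5 CPM in either group and no overlap, the 6 largest interactions per direction under the same limits, and 2 to 4 members per list with the largest difference, others being listed where a count called for it. Some loci are not reported here and were left out of the lists and of the named loci. The members, the 31 lists and the rule were chosen with earlier results of these data known. Alternatives were other scalings, pseudocounts, filters, variance priors, subsets of libraries, a replicate block and leaving out each library.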

Additional observations from a re-analysis of the deposited data

Results flagged for a closer look

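The values below are the KO minus WT difference of the PB minus CITCO difference (log2) for the 47 named loci where limma called it. They were singled out because the agents differed by unequal amounts in the genotypes, and the test of that inequality is the interaction itself. Among P450 genes and their electron and heme supply the difference was larger in KO cells for CYP2B6 (3.68), CYP2C8 (1.90), CYP2B7P (1.71), CYP2A6 (1.30), CYP3A7 (1.25), CYP2A13 (1.14), CYP2C18 (0.52), CYP3A5 (0.29), ALAS1 (0.68), POR (0.64) and CYB5A (0.34).

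Conjugating enzymes and exporters with a larger difference in KO cells were EPHX1 (0.58), UGT2B4 (0.43), GSTA1 (0.30), ABCB1 (0.75) and ABCC2 (0.25). The NRF2 targets were AKR1B10 (1.03), AKR1C2 (0.82) and GPX2 (0.81), and the bile acid synthesis genes were AKR1D1 (0.69) and SLC27A5 (0.51). Other hepatocyte genes were ARG1 (0.56), AGXT (0.44), SERPINC1 (0.26), CP (0.25) and CREB3L3 (0.50). Further loci with positive values were FOXN4 (1.54), CD14 (1.11), VSIG10L (1.11), RP11-14C10.5 (1.00), ANO1 (0.89), TSKU (0.88), SERPINA11 (0.81), ETNPPL (0.71), ANGPTL4 (0.65), ICAM1 (0.55), TRIB3 (0.52) and CD24 (0.26).

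Negative values were found for CYP1A1 (-2.08), HSD3B1 (-1.05), SLC14A1 (-0.92), HSD17B2 (-0.81), CYP2E1 (-0.80), FMO5 (-0.78), SCGN (-0.73), G6PC (-0.66) and CYP3A4 (-0.20). In CYP1A1 both genotypes were lower under PB than under CITCO, further so in KO cells. In CYP3A4 both were higher under PB, and its value changed sign after quantile normalization. Of the 47 calls, 26 held in every alternative setting tried.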

How the results depend on the processing

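Counts called in KO cells between PB and CITCO were 850 to 917 under other pseudocounts, filters, a robust prior and quantile normalization, 984 with scaling to column totals and 1280 in a fit of the 6 KO libraries, against 865 here. They were 452 with a constant prior variance and 1798 in a fit of the 4 libraries compared. The latter fit has fewer residual degrees of freedom, and the cause of either count was not tested. Leaving out 1 library gave 392 to 457 calls, with the lone sample of that arm assumed to vary like the other groups. Interaction counts, 219 here, were 215 to 271 under those settings, 44 with a constant prior variance, 362 in a fit of the 8 PB and CITCO libraries, and 82 to 413 when 1 library was left out.

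Same-numbered duplicates deviated together with r = 0.131 between KO PB and KO CITCO, and from -0.175 to 0.433 over the 15 pairs of groups, of which 6 lay above 0.1. The labels name no source that same-numbered samples share, and they are taken to share a number only. With the replicate block 827 loci were called in KO cells and 202 in the interaction, and 4 named calls had adjusted p = 0.052 to 0.059: GLUL and PYGL in KO cells and the interactions of CYP3A4 and CD24.

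Of 95 named loci called in KO cells 74 were called in every setting. ORM1 reversed to -0.025 after quantile normalization, as did the interaction of CYP3A4 to 0.058. Under column-total scaling the P450 list held 11 calls.

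Precision is limited by 2 libraries per group, and scarce loci such as CYP1A2 rest on few reads.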

Other observations

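A pair of loci under the 5 CPM limit for named genes differed by more than 2 on the log2 scale, and both were picked after their values were seen. DNAH12, which encodes a dynein heavy chain of cilia, had 3.38 and 3.09 CPM in KO PB, 0.392 and 0.248 CPM in KO CITCO, and 0.117 and 0.235 CPM in KO DMSO libraries. It was higher under PB by 2.19 (limma adjusted p = 1.11e-05), with a KO minus WT difference of 1.502 (adjusted p = 0.0408). GSTA6P, a pseudogene of the GSTA family, had 4.98 and 2.52 CPM in KO PB and 0.0164 and 0.0620 CPM in KO CITCO libraries. The WT libraries of GSTA6P were uneven, at 6.15 and 0.161 CPM under PB and 1.52 and 4.37 CPM under CITCO, and its reads may be shared with GSTA5.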
